A study of Mus musculus with 22 samples.

Results

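The genes described here encode the machinery of DNA replication and of deoxynucleotide supply in the mouse. The list holds 41 genes, and each was read by every probe set of the arrays whose only annotated symbol was that gene. These were 72 probe sets (52 of them on chip A, 17 on chip C and 3 on chip B) out of 36701 probe sets for 15964 genes. A gene was summarised by its brightest probe set, the one with the highest mean log2 signal. The RNA was read on 22 Affymetrix arrays of a mouse set split over 3 chip types. It came from mammary tumours of mice with a Her2/Neu transgene, that is, one for the receptor ErbB2. These mice were labelled PEA3-null (2 RNA samples) or wild type for PEA3 (3 RNA samples). The controls were normal mammary glands of FVB mice (3 RNA samples). Both tumour groups carry the transgene and the normal glands are not said to. PEA3 is an ETS-family transcription factor encoded by Etv4. All 8 RNA samples were run on chips A and B, but on chip C only 6 were: the 3 normal ones, 2 wild-type tumours and 1 PEA3-null tumour. The tumour RNA was pooled, the normal samples are titled as pools, and within a group the submitters used a single sample identifier. The p-values therefore measure the spread between preparations, which may be technical, and not the spread between animals. The transgene's promoter, the ages of the animals and the strain of the tumour mice are not given in the sources used here.

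DNA replication starts at origins where the ORC complex, Cdc6 and Cdt1 load the ring-shaped MCM complex, the replicative helicase, and geminin (Gmnn) blocks reloading within the same cycle. Once the helicase is activated, primase and the DNA polymerases copy both strands, held to the template by the sliding clamp PCNA, while RPA coats the exposed single strand and CAF-1 places histones on the new DNA. Ribonucleotide reductase, thymidylate synthase and the salvage kinases provide the deoxynucleotides, and many of these genes are known to be transcribed as cells enter S phase, in part through factors of the E2F family.

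After scaling of every array to a 2% trimmed mean of 500, the signal was at least 150 for 6891 to 8415 probe sets of an array. The Etv4 probe sets gave no check of the genotype labels, since the deleted part and the probe positions are not given. On the dimmer of the 2 Etv4 probe sets the PEA3-null samples read 507 and 273 and the wild-type samples 415, 356 and 357. The chip A arrays of normal samples 1 and 2 carry a record of an aborted wash. By the labels the cells of all groups were sorted for Sca-1, a surface marker, while markers of other tissue were high in the normal glands. Summed signal of 6 skeletal muscle genes was 141842 to 145378 in the normal glands and 627 to 3035 in the tumours, and that of 4 adipocyte genes was 47466 to 50784 against 700 to 1474. Luminal epithelial genes (6 genes) summed to 4950 to 6326 in the normal glands and 33259 to 39885 in the tumours. Fibroblast and matrix genes (4 genes) were at 31015 to 33070 against 2031 to 3927, the basal genes (4) at 2801 to 3382 against 465 to 717, the endothelial genes (3) at 2000 to 2651 against 172 to 476, the lymphocyte genes (4) at 2800 to 3648 against 260 to 933 and the macrophage genes (3) at 6601 to 7482 against 2684 to 5543. None of these markers was at 0 in any sample. Most of the basal sum in the normal glands was Acta2, at 2525 to 3099 against 195 to 519 in the tumours. Krt5 and Krt14 stayed under 150 in every sample, with group means that were higher in both tumour groups. The ratio of the 3′ to the 5′ probe set of Gapdh, a measure of RNA integrity and labelling, was 2.58 to 6.08 on the normal arrays and 0.910 to 1.25 on the tumour arrays, and no scan day held both tumour and normal arrays of the same chip type. These differences run alongside every comparison of a tumour with a normal gland below. Their part in the results was not tested, tissue cannot be told apart from scan day, and in bulk RNA a change in the number of cells of a type cannot be told apart from a change in RNA per cell.

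Promoter sequences were examined for the motif bound by E2F factors, because these factors are known for regulating replication genes. The spellings TTTCCCGC, TTTCGCGC, TTTGCCGC and TTTGGCGC were searched on both strands in RefSeq windows of build GRCm38.p6 that run from 250 bases before to 50 bases after a gene's start. Of the members, 36 had a window, and 11 of these held a match (30.6%), against 704 of 27025 genes (2.6%). The holders were Orc1, Cdc6, Cdt1, Mcm3, Mcm5, Mcm6, Mcm7, Pola1, Pold1, Rfc3 and Lig1. A CCAAT box, searched by those letters on both strands, was present in 21 of the 36 (58.3%) and in 41.1% of all genes. The stretches that follow are those in which a match lay upstream and outside the annotated gene within 170 bases of the start. They lie at chr8:75109339-75109467 on the plus strand for Mcm5, at chr1:128359706-128359875 on the minus strand for Mcm6 and at chr5:151651209-151651378 on the minus strand for Rfc3. Each is written 5′ to 3′ along its gene's strand, with the E2F motif in capitals. In Mcm5 and in the first match of Mcm6, matches on opposite strands overlap and form 1 run of capitals.
Mcm5: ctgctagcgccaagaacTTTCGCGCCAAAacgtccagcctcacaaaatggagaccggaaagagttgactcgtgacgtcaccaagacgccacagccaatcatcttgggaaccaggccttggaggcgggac
Mcm6: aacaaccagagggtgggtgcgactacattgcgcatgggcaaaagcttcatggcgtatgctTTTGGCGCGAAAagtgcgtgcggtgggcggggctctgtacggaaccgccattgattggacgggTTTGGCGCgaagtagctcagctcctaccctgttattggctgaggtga
Rfc3: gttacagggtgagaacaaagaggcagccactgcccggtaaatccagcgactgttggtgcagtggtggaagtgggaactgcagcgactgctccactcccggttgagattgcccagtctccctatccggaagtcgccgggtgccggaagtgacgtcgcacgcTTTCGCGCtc
A match is a run of letters and not a measured binding site.

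Against normal glands, the wild-type tumours had higher signal for 15 of the 38 members with a testable probe set and lower signal for 1, and 22 did not pass. Over all 13852 genes tested in this comparison, 12.9% were higher and 13.9% were lower. The 15 were Orc6, Mcm3, Mcm7, Pcna, Rfc2, Rfc5, Rpa1, Rpa2, Rpa3, Fen1, Chaf1a, Chaf1b, Rrm2, Tk1 and Dck, and the gene that fell was Pole. The median log2 difference of the 38 was 0.64, with a range of -0.97 to 1.60, against -0.0024 over all genes. All wild-type tumour samples that were read lay above all normal samples for 19 members and below them for 3, where 23.7% and 24.8% of all genes did so. Members read on chip C, among them Tk1 above and Mcm5 and Mcm6 below, rest on 2 wild-type samples. Differences were tested with limma on log2(signal + 32), two-sided, with p-values adjusted over all 28138 probe sets tested, and a fold given below is on that scale, which understates the change of dim genes. The count of 15 was 8 without normal sample 1, 8 without normal sample 2 and 9 without wild-type sample 1, and the fall of Pole did not pass without any 1 of the normal samples or without wild-type sample 1 or 2. Without the 2 chip A arrays of normal samples 1 and 2, it was 7.

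Against the same 3 normal samples, the PEA3-null tumours had higher signal for 16 of 37 members and lower signal for 2 (Pole and Rfc1), and 19 did not pass. Over all 11725 genes tested on chips A and B, 13.2% were higher and 15% were lower. The 12 genes Orc6, Mcm7, Pcna, Rfc5, Rpa1, Rpa3, Fen1, Chaf1a, Chaf1b, Rrm2, Tk1 and Dck passed in both tumour groups, which share their controls. Mcm5, Cdc7, Rfc3 and Rrm1 completed the 16. The median log2 difference of the 37 was 0.77, with a range of -1.57 to 2.15, against 0.02 over all genes. Both PEA3-null samples lay above all normal samples for 24 members and below them for 3, where 28.3% and 27.9% of all genes did so. The count of 16 was 8 without normal sample 2, 10 without normal sample 3 and 7 without PEA3-null sample 1, and without the 2 chip A arrays with the aborted wash it was 9. The 2 falls became 0 without normal sample 1 and 1 without any other normal or PEA3-null sample or without those arrays.

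Some of the tested members could only have passed the signal filter through the tumours. No normal array reached 150 for Orc2, Gmnn, Cdc7, Prim1, Rfc4 and Dut, and of these 6 only Cdc7 passed a test. The filter asks for 2 arrays at 150, and the normal glands fell short of that for further members. These were Fen1 (166, 126 and 111), Chaf1a (78.3, 171 and 148), Cdc6 (154, 141 and 147) and Pola1 (107, 170 and 135). Of these, Fen1 and Chaf1a passed in both tumour groups, so their calls also rest on a filter met through the tumours. Orc1, Prim2 and Tyms had no testable probe set, which leaves 38 of the 41.

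**Figure D1:**
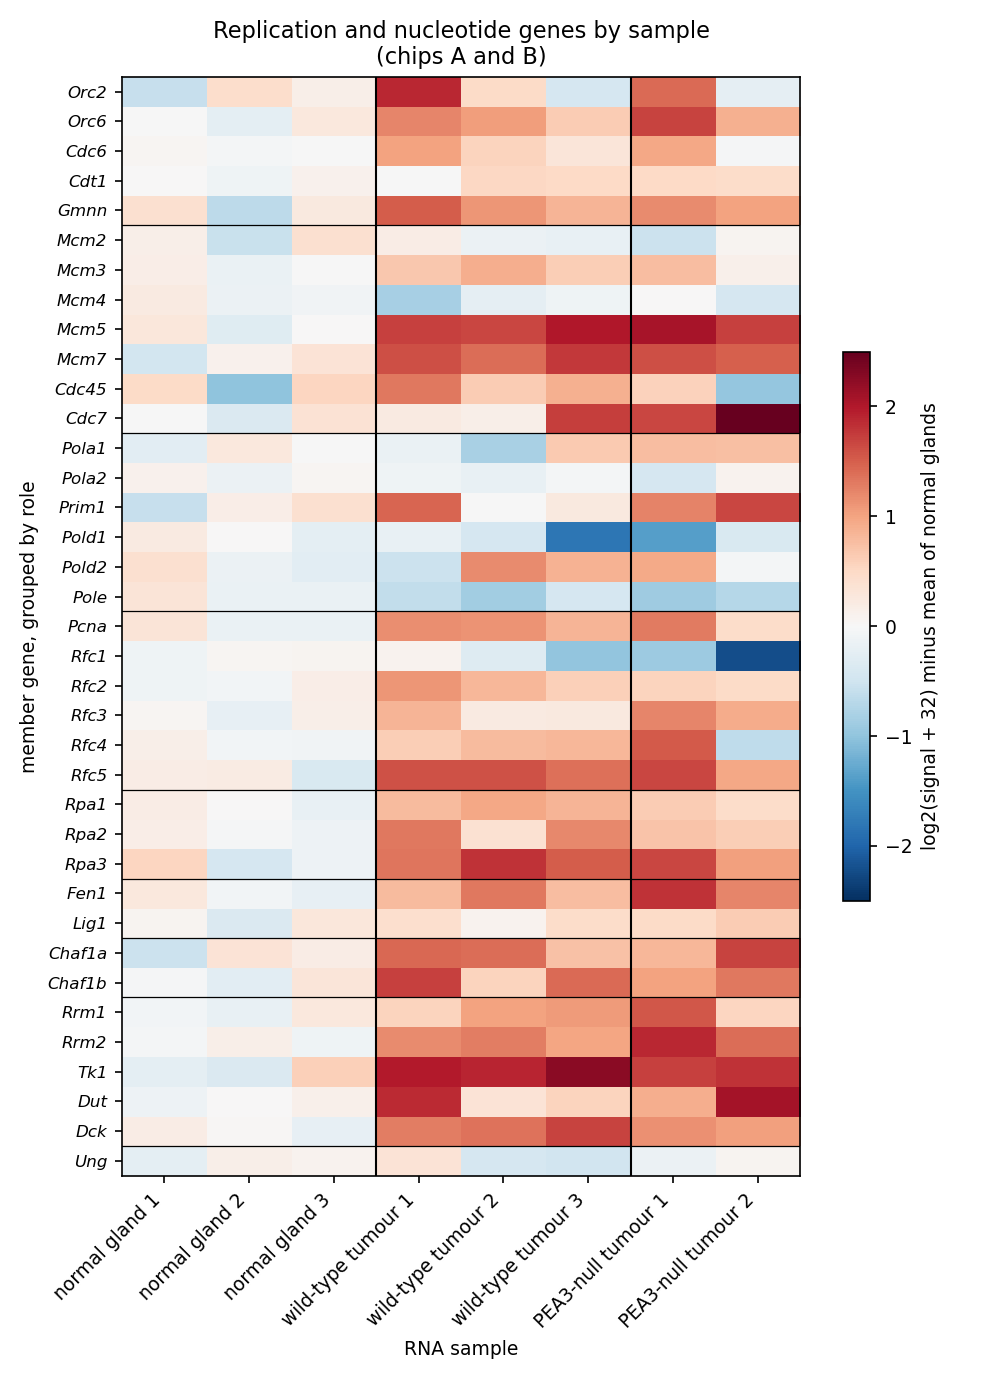
Log2(signal + 32) of 37 members (rows, grouped by role) in the 8 RNA samples (columns), minus the mean of the 3 normal glands, from chips A and B. Red is above and blue below the normal mean, and the median over the 37 was 0.64 to 1.01 in the wild-type tumours and 0.62 and 0.97 in the PEA3-null tumours.

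Sample by sample, the median of the 37 members on chips A and B stood 1.01, 0.64 and 0.73 above the normal mean on the log2 scale in wild-type tumours 1 to 3 and 0.97 and 0.62 above it in PEA3-null tumours 1 and 2. The normal glands themselves stood at 0.07, -0.11 and 0.07. All 5 tumour samples therefore lay above all normal samples, while the median over all genes stayed within -0.01 to 0.05 in every sample. The heat map of samples shows that the shift differed between roles, and the medians of the 6 polymerase and primase genes lay between -0.30 and 0.18 in the 5 tumour samples.

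Among the licensing factors, 1 of 5 tested genes (20%) rose in each tumour group, where 12.9% and 13.2% of all genes rose. These are too few genes to read a difference from the shares over all genes. Orc6, the smallest subunit of the origin recognition complex, read 193, 160 and 241 in normal glands, 499, 438 and 320 in wild-type tumours and 704 and 389 in PEA3-null tumours. Every tumour sample was above every normal sample. The rise was 1.95-fold in wild-type tumours (log2 0.97, SE 0.29, limma adjusted p = 0.0373) and 2.44-fold in PEA3-null tumours (log2 1.29, SE 0.33, limma adjusted p = 0.0141). The first call held in 11 of 20 alternative processing settings, which include leaving out each RNA sample in turn, and the second in 18 of 21. Geminin, the inhibitor of licensing, also had all tumour samples above the normal ones, at log2 differences of 1.15 and 1.09 that missed the threshold (limma adjusted p = 0.0553 and 0.0908). Cdc6 (0.62 and 0.47), Cdt1 (0.34 and 0.48), which load the helicase, and the ORC subunit Orc2 (0.64 and 0.60) did not pass either. The ORC subunit Orc1 stayed under 150 on all but 1 array, at 154 in wild-type tumour 1, and was not tested.

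The helicase genes did not move as a block. Mcm7, a subunit of the MCM ring, read 265, 413 and 492 in normal glands, 1222, 1056 and 1376 in wild-type tumours and 1221 and 1122 in PEA3-null tumours. The tumour samples did not overlap the normal ones, and the rises were 3.03-fold (log2 1.60, SE 0.22, limma adjusted p = 0.000289) and 2.93-fold (log2 1.55, SE 0.25, limma adjusted p = 0.000794). Both calls held in 21 of 21 alternatives. Mcm5 on chip A read 762, 494 and 623 in normal glands, 2084, 2043 and 2565 in wild-type tumours and 2659 and 2083 in PEA3-null tumours. That is a rise of 3.47-fold (log2 1.79, SE 0.19, limma adjusted p = 3.3e-05) and 3.68-fold (log2 1.88, SE 0.21, limma adjusted p = 6.17e-05), again with no overlap. A brighter Mcm5 probe set on chip C, which stands for the gene in the wild-type count, read 7208, 8819 and 6380 in normal glands and 5590 and 5888 in wild-type tumours, with a log2 difference of -0.37 (SE 0.21, limma adjusted p = 0.272). The Mcm5 call thus depends on which of its probe sets is read.

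Mcm3 read 441, 345 and 385 in normal glands, 641, 754 and 611 in wild-type tumours and 688 and 426 in PEA3-null tumours. It rose 1.66-fold in wild-type tumours (log2 0.73, SE 0.23, limma adjusted p = 0.0399), a call kept in 9 of 21 alternatives, and PEA3-null sample 2 fell within the normal range (log2 0.45, limma adjusted p = 0.228). Mcm2, another MCM subunit, read 390, 228 and 470 in normal glands, 403, 314 and 303 in wild-type tumours and 229 and 366 in PEA3-null tumours. Its groups overlapped throughout, with log2 differences of -0.04 (95% interval -0.72 to 0.63) and -0.24 (-0.99 to 0.51). Mcm4 read 464, 353 and 370, then 208, 330 and 363, then 398 and 287 in the same order of groups, with log2 differences of -0.39 and -0.20 that did not pass. For Mcm6 there were 2 tested probe sets, both on chip C. The brighter read 521, 586 and 592 in normal glands and 357 and 208 in wild-type tumours, and the dimmer read 65.8, 74.5 and 90.3 against 255 and 379. Their log2 differences of -0.97 and 1.66 had opposite signs and neither passed (limma adjusted p = 0.17 and 0.0901). The lone PEA3-null array of chip C read 367 and 114 on them.

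Among the genes that activate the helicase, Cdc7, the kinase that phosphorylates the MCM ring, read 33.9, 20.1 and 53.6 in normal glands, 45.5, 41.4 and 189 in wild-type tumours and 181 and 379 in PEA3-null tumours. It passed the signal filter through tumour arrays alone, since no normal array reached 150. The log2 difference in PEA3-null tumours was 2.15 (SE 0.67, limma adjusted p = 0.0318), and as the normal level is under the signal minimum its size depends on the added constant, from 2.94 with 1 added to 1.44 with 100 added. The call held in 12 of 18 alternatives. A second Cdc7 probe set, on chip A, was too dim to test and went the other way, with 31.4 and 40.4 in PEA3-null tumours against 44.5, 53.5 and 93.5 in normal glands. Cdc45, a helicase cofactor, did not pass on either chip. On chip A its log2 difference was 0.95 in wild-type tumours and -0.20 in PEA3-null tumours, where the samples read 236 and 60.3.

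Of the polymerase and primase genes, 0 of 6 tested were higher and 1 was lower in each tumour group by limma adjusted p. By unadjusted limma p under 0.05, 1 of the 6 differed in wild-type tumours and 2 in PEA3-null tumours, where 39% and 39.9% of all genes did so. These counts are 16.7% and 33.3% of the 6, too few genes to read a difference from the shares over all genes. The gene that fell was Pole, the catalytic subunit of polymerase epsilon, which copies the leading strand. Its probe set on chip B read 4820, 3419 and 3415 in normal glands, 2489, 2083 and 2875 in wild-type tumours and 2068 and 2335 in PEA3-null tumours, so that all tumour samples were below all normal ones. The log2 differences were -0.63 (SE 0.19, limma adjusted p = 0.0339) and -0.79 (SE 0.22, limma adjusted p = 0.0168). These calls held in 14 and 18 of 21 alternatives. Pold1, the catalytic subunit of polymerase delta, had log2 differences of -0.81 and -0.88 that did not pass. Its wild-type samples overlapped the normal ones, and both PEA3-null samples (162 and 354) lay below them (397 to 558). Its partner Pold2 differed by 0.51 and 0.45. Pola1, the catalytic subunit of polymerase alpha, differed by -0.10 and 0.77. Prim1, the catalytic primase subunit, differed by 0.57 and 1.46 (limma adjusted p = 0.476 and 0.0707). For Pola2, the accessory subunit of polymerase alpha, the brighter probe set differed by -0.11 and -0.16. A second Pola2 probe set was lower in both tumour groups (log2 -1.56 and -1.72, limma adjusted p = 0.0114 and 0.0111), with 391, 413 and 599 in normal glands against 173, 86.0 and 160 and then 71.2 and 184.

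**Figure D2:**
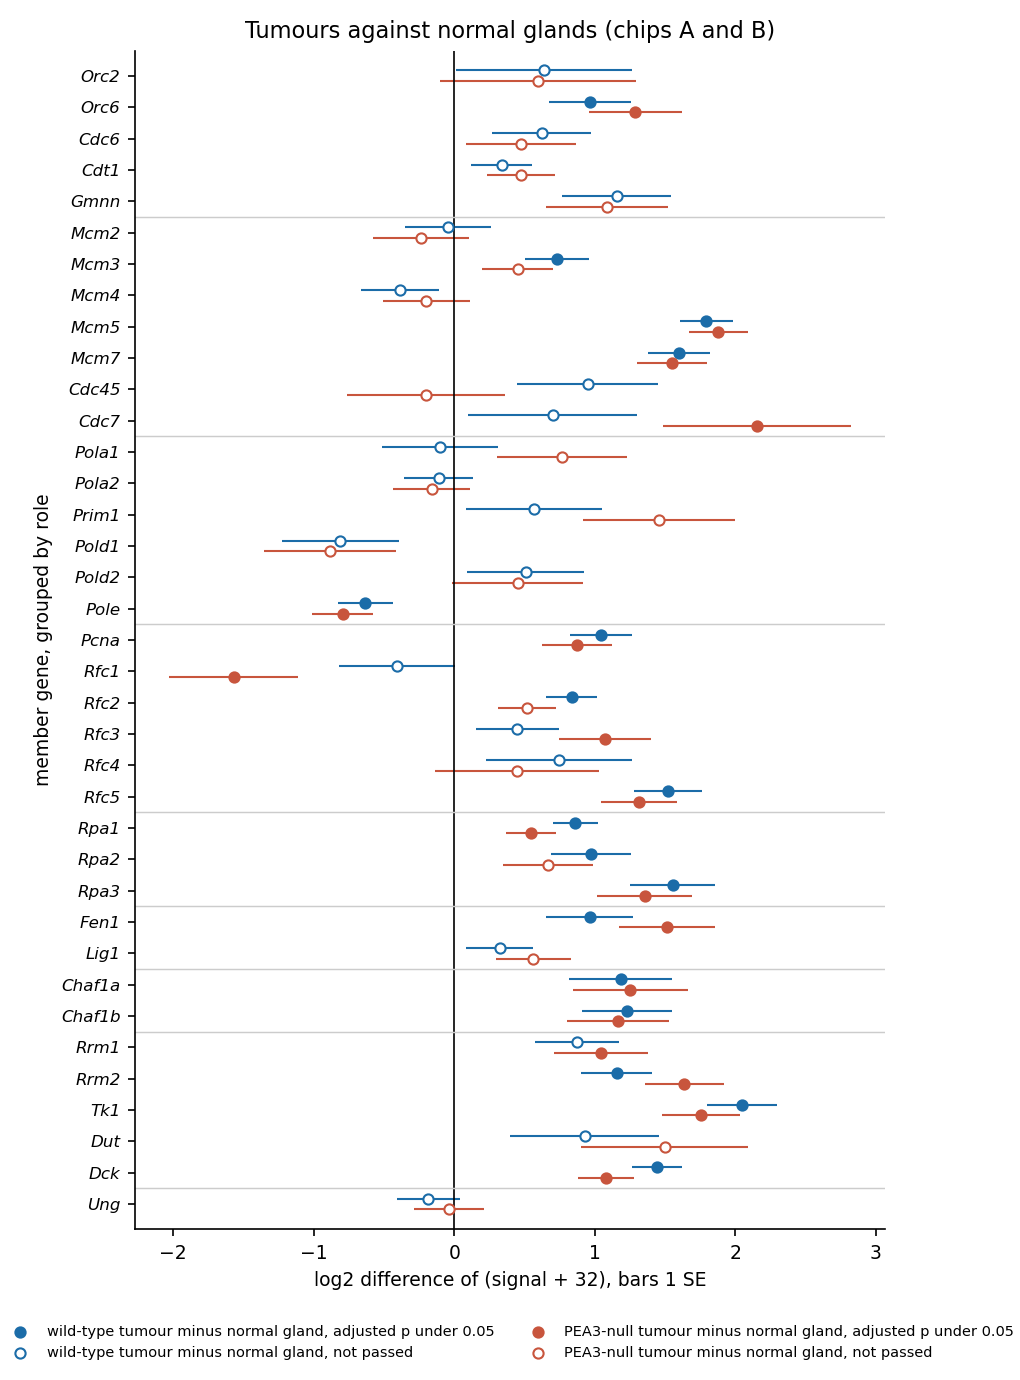
Log2 difference of each member from the normal glands (x axis, bars 1 SE) in wild-type tumours (blue) and PEA3-null tumours (red), read from chips A and B, with filled points for limma adjusted p under 0.05. Most points lie right of 0, while Pole is filled on the left in both groups and Rfc1 in the PEA3-null tumours. Points for Mcm5, Cdc45, Rrm1, Tk1 and Dut are from chip A, although a brighter probe set on chip C stands for them in the wild-type count.

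The clamp and 2 subunits of its loader rose in wild-type tumours, and 3 genes rose and 1 fell in PEA3-null tumours, of 6 tested. The rises were 50% of the 6 in each group, where 12.9% and 13.2% of all genes rose. The fall was 16.7%, where 15% of all genes fell. Pcna, the sliding clamp, read 1441, 1012 and 1020 in normal glands, 2589, 2538 and 2071 in wild-type tumours and 2852 and 1574 in PEA3-null tumours. All tumour samples exceeded the normal ones, PEA3-null sample 2 by the least. The rise was 2.06-fold (log2 1.04, SE 0.22, limma adjusted p = 0.00545) and 1.83-fold (log2 0.87, SE 0.25, limma adjusted p = 0.0236), kept in 21 and 15 of 21 alternatives. Rfc5, a small subunit of the clamp loader replication factor C, read 351, 358 and 226 in normal glands, 981, 990 and 845 in wild-type tumours and 1042 and 626 in PEA3-null tumours. Neither tumour group overlapped the normal glands, and the rises were 2.87-fold (log2 1.52, SE 0.24, limma adjusted p = 0.000799) and 2.49-fold (log2 1.32, SE 0.27, limma adjusted p = 0.00417). A dimmer Rfc5 probe set had differences of 0.56 and 0.27 that did not pass.

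Rfc2, another small loader subunit, read 551, 567 and 669 in normal glands, 1307, 1073 and 908 in wild-type tumours and 885 and 841 in PEA3-null tumours. It rose 1.78-fold in wild-type tumours (log2 0.84, SE 0.18, limma adjusted p = 0.00652) and differed by 0.52 in PEA3-null tumours, where it missed the threshold (limma adjusted p = 0.0905) although both samples exceeded all normal glands. Rfc3 read 180, 144 and 194 in normal glands, 336, 207 and 210 in wild-type tumours and 440 and 356 in PEA3-null tumours. All tumour samples were again above the normal ones, and the rise passed in PEA3-null tumours alone (2.10-fold, log2 1.07, SE 0.33, limma adjusted p = 0.0341), kept in 13 of 21 alternatives. In wild-type tumours the Rfc3 difference was 0.45 (limma adjusted p = 0.344). Rfc1, the large loader subunit, went the other way, with 264, 297 and 305 in normal glands, 308, 225 and 129 in wild-type tumours and 138 and 36.5 in PEA3-null tumours. Both PEA3-null samples were below all normal glands, and the fall there was -1.57 on the log2 scale (SE 0.46, limma adjusted p = 0.0271), kept in 15 of 20 alternatives. The wild-type samples of Rfc1 overlapped the normal ones (log2 -0.41, limma adjusted p = 0.559). Rfc4 differed by 0.74 and 0.45 without passing, and its PEA3-null samples read 270 and 35.1.

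All 3 subunits of RPA, the protein that coats single-stranded DNA, rose in wild-type tumours, and Rpa1 and Rpa3 passed in PEA3-null tumours. These were 100% and 66.7% of the 3 genes, where 12.9% and 13.2% of all genes rose. Rpa3, the small subunit, read 269, 123 and 157 in normal glands, 490, 685 and 561 in wild-type tumours and 628 and 390 in PEA3-null tumours, with no tumour sample in the normal range. It rose 2.93-fold (log2 1.55, SE 0.30, limma adjusted p = 0.00321) and 2.56-fold (log2 1.35, SE 0.34, limma adjusted p = 0.0129). Rpa1, the large subunit, read 910, 802 and 701 in normal glands, 1398, 1587 and 1459 in wild-type tumours and 1255 and 1114 in PEA3-null tumours. Its rise was 1.82-fold (log2 0.86, SE 0.16, limma adjusted p = 0.00208) and 1.46-fold (log2 0.55, SE 0.18, limma adjusted p = 0.0424). The PEA3-null call on Rpa1 was kept in 8 of 21 alternatives, and the next brightest probe set of chips A and B gave -1.20 there (limma adjusted p = 0.183). Rpa2, the middle subunit, read 257, 220 and 202 in normal glands, 609, 305 and 561 in wild-type tumours and 390 and 363 in PEA3-null tumours. All tumours exceeded the normal glands, and the rise passed in wild-type tumours (1.96-fold, log2 0.97, SE 0.29, limma adjusted p = 0.0314) but not in PEA3-null tumours (log2 0.67, limma adjusted p = 0.156).

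Of the genes that finish lagging-strand fragments, Fen1, the nuclease that trims the flap, read 166, 126 and 111 in normal glands, 253, 380 and 249 in wild-type tumours and 545 and 351 in PEA3-null tumours. All tumour samples were above all normal ones, with rises of 1.95-fold (log2 0.96, SE 0.31, limma adjusted p = 0.0454) and 2.85-fold (log2 1.51, SE 0.34, limma adjusted p = 0.00731). These calls held in 10 and 20 of 21 alternatives. Lig1, the ligase that seals the fragments, differed by 0.32 and 0.56 and did not pass in either group.

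Both CAF-1 subunits on the list rose in both tumour groups, where 12.9% and 13.2% of all genes rose in wild-type and PEA3-null tumours. Chaf1a, the large subunit of this histone chaperone, read 78.3, 171 and 148 in normal glands, 397, 387 and 232 in wild-type tumours and 250 and 479 in PEA3-null tumours. Chaf1b read 177, 146 and 230, then 670, 284 and 536, then 398 and 502. For both genes every tumour sample was above every normal sample. The rises of Chaf1a were 2.27-fold (log2 1.18, SE 0.36, limma adjusted p = 0.0386) and 2.38-fold (log2 1.25, SE 0.41, limma adjusted p = 0.043), and those of Chaf1b were 2.34-fold (log2 1.23, SE 0.32, limma adjusted p = 0.0179) and 2.24-fold (log2 1.17, SE 0.36, limma adjusted p = 0.0349). The Chaf1a calls held in 14 and 9 of 21 alternatives and the Chaf1b calls in 16 and 14.

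Of the genes for nucleotide supply, 3 of 5 tested rose in wild-type tumours and 4 of 5 in PEA3-null tumours. These were 60% and 80%, where 12.9% and 13.2% of all genes rose. Rrm2, the regulatory subunit of ribonucleotide reductase, read 155, 181 and 148 in normal glands, 408, 438 and 351 in wild-type tumours and 681 and 474 in PEA3-null tumours. The 3 groups did not overlap, with the PEA3-null samples above all wild-type samples. It rose 2.23-fold (log2 1.15, SE 0.25, limma adjusted p = 0.00644) and 3.11-fold (log2 1.64, SE 0.28, limma adjusted p = 0.00133). Rrm1, the catalytic subunit, read 222, 205 and 288 in normal glands, 360, 506 and 527 in wild-type tumours and 756 and 355 in PEA3-null tumours on chip A. It rose 2.06-fold in PEA3-null tumours (log2 1.05, SE 0.34, limma adjusted p = 0.0417), a call kept in 6 of 20 alternatives. In wild-type tumours the chip A difference was 0.87 (limma adjusted p = 0.0622), and the brighter probe set of chip C, with 379, 320 and 427 in normal glands against 394 and 312, differed by -0.08 (limma adjusted p = 0.93).

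Tk1, the thymidine salvage kinase, read 223, 205 and 424 in normal glands, 1158, 1097 and 1412 in wild-type tumours and 958 and 1019 in PEA3-null tumours on chip A. All tumours lay above all normal glands, with rises of 4.13-fold (log2 2.05, SE 0.25, limma adjusted p = 0.000114) and 3.38-fold (log2 1.76, SE 0.28, limma adjusted p = 0.000776). Its brightest probe set, on chip C, read 1092, 1257 and 2061 in normal glands, 2998 and 5364 in wild-type tumours and 1649 on the lone PEA3-null array, and rose 2.79-fold in wild-type tumours (log2 1.48, SE 0.35, limma adjusted p = 0.0156). Dck, the deoxycytidine kinase, read 619, 550 and 468 in normal glands, 1354, 1437 and 1831 in wild-type tumours and 1233 and 1132 in PEA3-null tumours. No sample of either tumour group reached down to the normal glands. It rose 2.71-fold (log2 1.44, SE 0.18, limma adjusted p = 0.000121) and 2.11-fold (log2 1.08, SE 0.20, limma adjusted p = 0.00206), in 19 of 19 alternatives each. Its tested probe set carries a letter code (_f_at), and its other probe set was too dim to test. The alternatives with the second brightest probe set, or without letter codes, therefore could not read Dck. Dut, which removes dUTP, had log2 differences on chip A of 0.93 and 1.50 that did not pass (limma adjusted p = 0.268 and 0.0902), from 28.3, 34.3 and 40.6 in normal glands to 210, 52.4 and 65.9 and then 92.5 and 248. Tyms, thymidylate synthase, was read by a probe set of chip C at 34.5, 55.1 and 126 in normal glands, 180 and 34.8 in wild-type tumours and 65.1 on the lone PEA3-null array, too dim to test. Ung, which excises uracil from DNA, differed by -0.19 and -0.04 on its brightest probe set, with overlapping samples.

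**Figure D3:**
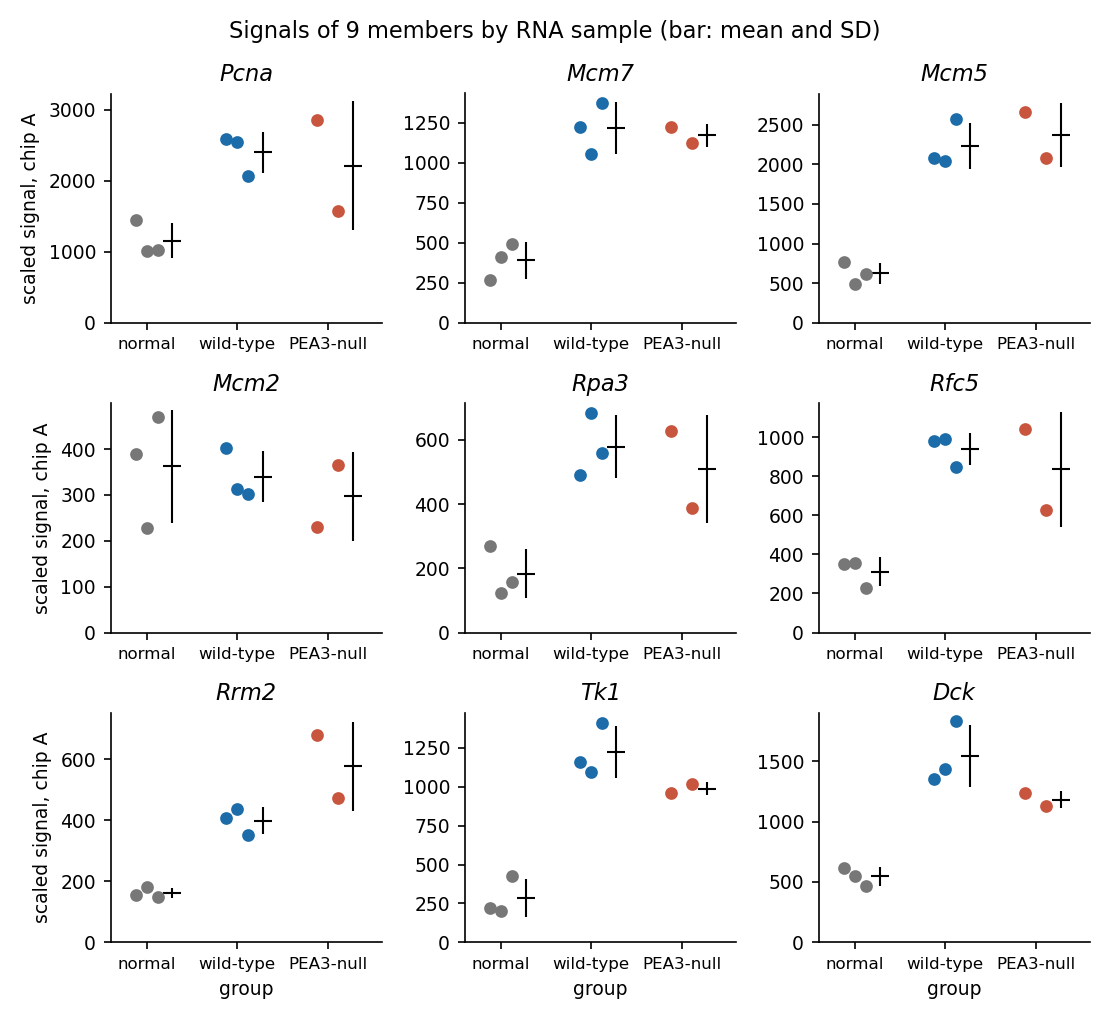
Scaled signal on chip A (linear y axis from 0) of 9 members in every RNA sample of the 3 groups (points), with the mean and SD of each group beside them. The genes other than Mcm2 leave a gap between all tumours and all normal glands. The groups of Mcm2 overlap, at 228 to 470 in the normal glands and 229 to 403 in the tumours.

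Between the 2 tumour genotypes, none of the 37 members passed the test, in either direction. Over all genes 0.162% were higher and 0.0768% were lower in PEA3-null tumours by limma adjusted p. By unadjusted limma p under 0.05, 2 of the 37 members differed, and 1287 of the 11725 genes did. The median log2 difference was -0.06, and the largest were 1.45 for Cdc7 (95% interval 0.01 to 2.90, limma adjusted p = 0.47) and -1.16 for Rfc1 (-2.17 to -0.15, limma adjusted p = 0.391). Both PEA3-null samples lay above all wild-type samples for 4 members (Pola1, Rfc3, Lig1 and Rrm2) and below them for 5 (Cdc45, Rfc2, Rpa1, Tk1 and Dck), where 11.1% and 12.3% of all genes did so.

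The precision of this comparison differed between members. The 95% interval reached 1 or -1 on the log2 scale for 17 of the 37, and its half-width had a median of 0.72 and ran from 0.39 to 1.53. Intervals were narrow for some genes that rose in both tumour groups, such as Mcm7 (-0.59 to 0.50), Pcna (-0.71 to 0.38) and Dck (-0.80 to 0.07). They were also narrow for Mcm5 as read on chip A (-0.37 to 0.54). Dim genes such as Orc2 (-1.57 to 1.49) and Rfc4 (-1.57 to 0.98) had wide intervals. A missed threshold does not show that the genotypes had equal levels. The fit pools its spread with the normal glands, which varied less: on chip A the SD of log2 values had a median of 0.205 in them, 0.315 in wild-type and 0.323 in PEA3-null tumours. On chip A all 5 tumour arrays shared a scan day, and on chip B, which carries Cdc7 and Pole, the genotypes did not. Members that passed in only 1 tumour group are therefore not shown to differ between the genotypes: Mcm3, Rfc2 and Rpa2 were called in wild-type tumours, Mcm5, Cdc7, Rfc3 and Rrm1 in PEA3-null tumours, and Rfc1 fell in the latter. On chip A alone Mcm5 passed in both groups.

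**Figure D4:**
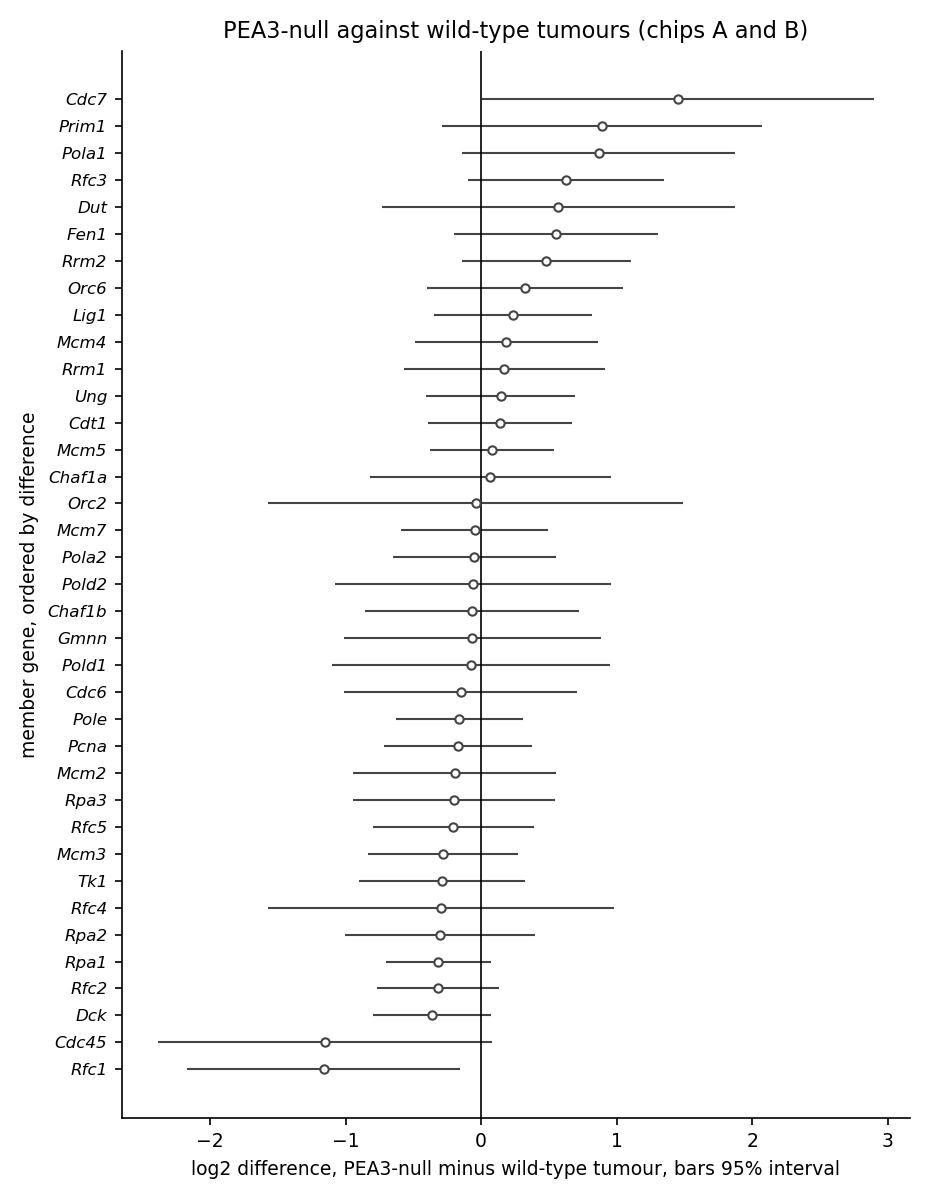
Log2 difference between PEA3-null and wild-type tumours (x axis) for the 37 members tested on chips A and B, ordered by size, with 95% intervals. The intervals of 35 members include 0, and those of Cdc7 (0.01 to 2.90) and Rfc1 (-2.17 to -0.15) do not.

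Several members were read by more than 1 probe set, and these did not always move together. Of the 14 members with more than 1 tested probe set, 7 had both signs in wild-type tumours against normal glands, namely Cdc45, Mcm5, Mcm6, Pold1, Rpa1, Rrm1 and Ung. For Mcm5 the values were 1.79 on chip A and -0.37 on chip C, and for Rpa1 they were 0.86 on chip A, 0.52 on chip C and -1.31 on chip B. The chip B probe set of Rpa1 was dim, at 151, 94.1 and 179 in normal glands and 18.0 to 87.6 in wild-type tumours. Both dimmer probe sets of Rpa1 missed the threshold (limma adjusted p = 0.596 and 0.122). Pold1 ranged from -0.81 to 0.29 over 3 probe sets, none of which passed. The remaining 7 kept 1 sign, among them Tk1 with 4 probe sets between 0.38 and 2.05 and Mcm3 with 0.73 and 0.10. Restricting the wild-type comparison to chips A and B raised the count of higher members from 15 to 18, and reading each gene by its next brightest probe set lowered it to 9.

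**Figure D5:**
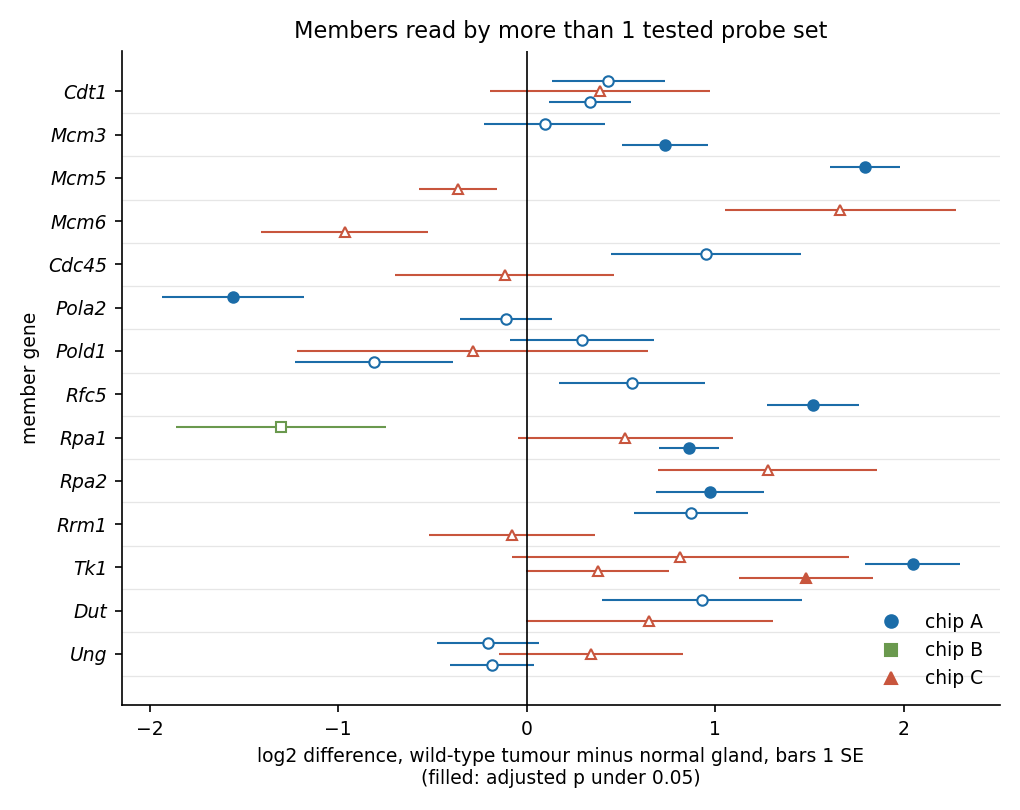
Log2 difference between wild-type tumours and normal glands (x axis, bars 1 SE) for every tested probe set of the 14 members with more than 1, by chip type, with filled points for limma adjusted p under 0.05. Mcm5 spans 1.79 to -0.37 and Mcm6 1.66 to -0.97, while the 4 probe sets of Tk1 all lie right of 0.

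Related genes outside the list were counted in the same fits. Of 28 further replication genes, 4 rose and 0 fell in wild-type tumours, and 3 rose and 2 fell among 26 in PEA3-null tumours. The shares of higher genes, 14.3% and 11.5%, were near the 12.9% and 13.2% of all genes. By unadjusted limma p under 0.05, 5 and 7 of them differed (17.9% and 26.9%, against 39% and 39.9% of all genes). Uhrf1, which maintains DNA methylation behind the fork, differed by 1.94 and 1.76 on the log2 scale, Pold4, a small polymerase delta subunit, by 1.13 and 0.84, and Gins4, a helicase cofactor, by 1.01 and 1.16. Gins1, of the same GINS complex, rose by 1.21 in wild-type tumours on chip C. A dimmer Gins1 probe set on chip B went the other way without passing (-0.56 and -0.41, limma adjusted p = 0.5 and 0.649). Of 29 further nucleotide synthesis genes, 4 rose and 4 fell in wild-type tumours, and 4 rose and 2 fell among 27 in PEA3-null tumours. The rises, 13.8% and 14.8% of the genes tested, were again near the background. The falls were 13.8% and 7.41%, against 13.9% and 15% of all genes. Dtymk, the thymidylate kinase, differed by 1.79 and 1.41, and Prps1, which makes the ribose phosphate precursor, by -1.46 and -1.02. Atic, of purine synthesis, rose by 1.32 in wild-type tumours (0.73 in PEA3-null tumours, limma adjusted p = 0.148), and Samhd1, which degrades deoxynucleotides, fell by 1.28 and by 1.05.

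Of 13 E2F and RB family genes, E2f2, an activating E2F factor, rose in wild-type tumours (log2 1.87, limma adjusted p = 0.0171). In PEA3-null tumours 0 of 13 passed (2, or 15.4%, by unadjusted limma p under 0.05). Over all genes 12.9% and 13.2% rose, and in PEA3-null tumours 39.9% had an unadjusted limma p under 0.05. Among the 12 members that rose in both tumour groups, all with a promoter window, 1 (Mcm7) held the E2F motif, and among the 26 other tested members 9 of the 22 with a window held it. This split depends on the probe set read. Mcm5, which holds the motif, is among the 26 through its chip C probe set, although on chip A it passed in both tumour groups. Of the genes whose promoter stretches are printed, Mcm5 and Mcm6 had probe sets of opposite sign and Rfc3 rose in PEA3-null tumours. Chromatin and histone supply genes had 3 rises (25%) and 1 fall (8.33%) among 12 in wild-type tumours. In PEA3-null tumours 2 of 11 rose (18.2%). Over all genes 12.9% rose and 13.9% fell in wild-type tumours, and 13.2% rose in PEA3-null tumours. The histone variants H2az1 (2.09 and 1.88) and H2ax (1.18 and 1.06) rose in both, Hells, a chromatin remodeller, rose by 1.42 in wild-type tumours, and Rbbp7, a histone-binding protein, fell by 0.56 there.

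Markers of dividing cells were counted beside the members. Of 11 proliferation markers 7 rose in wild-type tumours (63.6%), and of 10 in PEA3-null tumours 6 rose (60%), and 0 fell in either. The shares of all genes that rose were 12.9% and 13.2%. Unadjusted limma p was under 0.05 for 8 and 6 markers, and for 39% and 39.9% of all genes. The 8 include a fall, of Ccne1 on chip C (log2 -1.08, limma adjusted p = 0.133). It read 877, 1288 and 664 in normal glands against 548 and 312 in wild-type tumours. A dimmer Ccne1 probe set on chip A differed by 0.07 and -0.10. The median log2 differences of the tested markers were 1.40 and 1.32. Cdk1, the mitotic kinase, differed by 3.35 and 3.08, Birc5, a subunit of the chromosomal passenger complex, by 2.72 and 2.55, Ccnb2, a mitotic cyclin, by 2.28 and 2.16, and Cdc20, an activator of the anaphase-promoting complex, by 2.08 and 1.71. Mki67 was not among them, with -0.60 in PEA3-null tumours (limma adjusted p = 0.315). In all 5 of these further lists, 0 genes passed between the genotypes, and the lowest limma adjusted p was 0.263. By unadjusted limma p under 0.05, 8 of their genes differed, where 11% of all genes did so.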

How the data were processed

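The deposited values are linear probe set intensities that the authors made with MAS5, per the submitters' processing notes, with no version or settings given, and the 2% trimmed mean of the deposited arrays was 1500.28 to 1501.06. Scan and wash records (no measurement) were read from the deposited experiment files. Here signals were scaled array by array to a 2% trimmed mean of 500 and converted to log2(signal + 32). Of 36701 probe sets (198 controls left out), 28138 were tested, those that reached 150 on no fewer than 2 arrays of their chip type. For each chip type, lmFit and eBayes of limma 3.58.1 (R 4.3.3), with a mean-variance trend, were run on all 3 groups together. The two-sided p-values were adjusted by Benjamini-Hochberg over the chip types entering a comparison, at a threshold of 0.05. Chip C, with its lone PEA3-null array, entered only the tests of wild-type tumours against normal glands. The number of arrays limits the precision, and the fits were tested on simulated data.

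A gene's probe set was the one with the highest mean log2 signal on the chip types that entered. Values by sample are given for members past the threshold in any comparison and for Pcna, Mcm2 to Mcm7, Rrm1, Rrm2, Tyms and Tk1. Of each further list up to 4 genes past the threshold in wild-type tumours are named, those with the largest change. Mki67 and Ccne1 were named after their values were seen. The members and lists were chosen with earlier results of these data known, and 2 histone symbols were updated through RefSeq synonyms. Only probe sets with 1 symbol in the platform annotation are named (29131 of 36701). The files give no probe positions. Promoter windows are those of RefSeq on GRCm38.p6. Replicate numbers did not pair the samples: same-numbered samples of different groups correlated at -0.111 to 0.0665 in their deviations from the group means (16 pairs).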

Additional observations from a re-analysis of the deposited data

Results flagged for a closer look

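Chip C carried only 1 PEA3-null array, so its values enter no comparison of the genotypes. On it 8 of the 14 tested probe sets for these genes read above all 3 normal arrays, as 35.7% of all tested probe sets of chip C did. The lone array read 516 for Cdt1 (normal 125 to 327) and 114 for the dimmer Mcm6 probe set (normal 65.8 to 90.3). It read 403 for Rpa1 (normal 125 to 380) and 540 for Rrm1 (normal 320 to 427). For Tk1 it read about 1380 on the second brightest probe set of the chip (normal 542 to 1181) and 348 on the dimmest of those tested (normal 30.4 to 210). Dut read 291 (normal 98.3 to 138) and Ung 698 (normal 261 to 492). On 4 of the 14 it read below all normal arrays, as on 31.2% of all tested probe sets of the chip. These were Mcm5 (4082, normal 6380 to 8819), the brighter Mcm6 probe set (367, normal 521 to 592), Cdc45 (135, normal 183 to 483) and Rpa2 (67.0, normal 116 to 252). With a single array these differences have no replicate check.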

How the results depend on the processing

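When single RNA samples were left out, 8 to 15 members were higher in wild-type tumours against normal glands, 0 to 1 were lower, and their median log2 difference was 0.62 to 0.73. For PEA3-null tumours the ranges were 7 to 17, 0 to 2 and 0.64 to 0.99, and between the genotypes 0 members passed in every such fit, with medians of -0.08 to 0.14. Other settings that moved a result were as follows. With 100 added before log2 the median in PEA3-null tumours was 0.58, and with chip C added it was 0.55. Without the mean-variance trend 0 members were lower in wild-type and 1 in PEA3-null tumours. Array weights left 10 higher in PEA3-null tumours. The second brightest probe set of each gene gave 9 higher and 2 lower in wild-type tumours and 9 higher in PEA3-null tumours. Chips A and B alone gave a wild-type median of 0.84. Without the 2 normal arrays with an aborted wash, an alternative added after seeing the data, 7 members were higher in wild-type tumours and 9 higher and 1 lower in PEA3-null tumours. Keeping only probe sets without a letter code, also added after seeing the data, gave 13 higher in wild-type and 14 in PEA3-null tumours. The replicate numbers did not pair the samples. With the replicate block, 12 members were higher and 0 lower in wild-type tumours, 12 higher and 2 lower in PEA3-null tumours, and 0 between the genotypes. The direction reversed for Rpa1 in PEA3-null tumours with the second brightest probe set (log2 -1.20) and for Mcm5 with chip C added (-0.85). The cause was not tested. Of the values of single members under alternatives, 552 kept their call, 148 missed the threshold with the same sign and 2 reversed. Mcm7, Pcna, Rpa3 and Dck kept their wild-type call in every alternative that read them, and Mcm7, Rrm2 and Dck their PEA3-null call.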
